A study of Arabidopsis thaliana with 4 samples.

Results

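The floral homeotic MADS-box genes AG, SEP1 to SEP4, AP1, AP3, PI, SHP1 and SHP2 were followed in a CURLY LEAF (CLF) RNA immunoprecipitation from Arabidopsis. They were taken by gene identifier, 10 genes among the 28539 that could be joined across all libraries. A gene was read from the row under its own TAIR10 identifier, or, where a library listed it only under a serial number, from the locus that overlapped its span by at least 0.8 in both directions. All 10 genes were found in every library. The 2 CLF RIP libraries came from plants of the clf-28 mutant carrying Myc-tagged CLF, which per the labels rescues the mutant. The 2 control RIP libraries came from wild-type plants, and both genotypes were in the Col-0 cultivar, grown in long days and aged 3 weeks. In both groups, RNA from sonicated nuclei of crosslinked plants was taken with an anti-Myc antibody, so the control shows RNA recovered without the tagged protein. Whether the replicates were separate plantings is not in the labels, so the p-values cover no more than the spread from library to library, which may be technical. Going by its name, each deposited table would belong to the opposite group from the one its sample label gives. The labels were followed, and every direction below turns if they are wrong.

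These genes encode transcription factors that bind DNA as dimers and higher complexes and give the floral organs their identity. In the standard model, AP1 acts in sepals and petals, AP3 and PI in petals and stamens, AG in stamens and carpels, and the SEP proteins join the others in common complexes. SHP1 and SHP2 act in carpels, ovules and the opening of the fruit. Polycomb repressive complex 2, of which CLF is a histone H3 lysine 27 methyltransferase, keeps many of them silent in leaves, and clf mutants are known for ectopic AG expression and curled leaves.

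The deposited level is FPKM, fragments scaled by transcript length and library size. A single read on the shortest loci, of 75 bp, was worth 25692.9 and 25764.5 FPKM in the CLF RIP and 10939.8 and 11294 FPKM in the control RIP, so an equal FPKM rests on fewer reads in the CLF RIP. CLF itself had 4.24 and 25.7 FPKM in the CLF RIP, against 25.9 and 27.1 FPKM in the control RIP, and it missed the threshold (limma adjusted p = 0.454), so it does not check the labels. UNE15, the gene in the series title, could not be joined across libraries. Leaf markers were abundant, and their summed level over 6 joined genes of 8 was 1164 to 1177 FPKM in the CLF RIP against 3110 to 3128 FPKM in the control RIP. Of these 6 genes, 5 were lower at the adjusted threshold, against 0.59% of all genes tested. The part of the leaf markers in the results below was not tested. Of 8 anther markers, AMS alone reached 1 FPKM (3.06 and 3.63 FPKM in the CLF RIP, 2.64 and 3.06 FPKM in the control RIP), and the others lay at or below 0.739 FPKM. The 8 anther markers summed to 4.71 and 5.08 FPKM in the CLF RIP and to 4.68 and 4.04 FPKM in the control RIP. Of 8 root markers, SCR alone reached 1 FPKM, EXPA7, RHD6 and PLT1 were listed at 0 throughout, and the sum was 3.67 and 4.59 FPKM in the CLF RIP and 3.92 and 3.47 FPKM in the control RIP.

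None of the 10 floral genes passed the threshold of the test over all genes. In the control RIP, 5 of them averaged 9.27 to 15.5 FPKM. Of these, AG, SEP3, AP1 and PI had both CLF RIP values below both control RIP values, as did 18.9% of all genes tested. In the order AG, SEP3, AP1 and PI, the control RIP mean was 13.2, 7.77, 2.48 and 2.33 times the CLF RIP mean. SEP4 overlapped between groups. The 5 genes are set apart by their control RIP level, which favours lower CLF RIP values, so their number is no support for a difference. As means, the order in the CLF RIP ran SEP4 (9.35 FPKM), PI (6.15), AP1 (4.22), SEP3 (2.00), AG (0.908), SEP1 (0.685) and AP3 (0.425), with SEP2, SHP1 and SHP2 listed at 0. The order in the control RIP ran SEP3 (15.5 FPKM), PI (14.4), AG (12.0), AP1 (10.5), SEP4 (9.27), AP3 (1.22), SEP1 (0.430) and SHP2 (0.199), with SEP2 and SHP1 listed at 0. In the CLF RIP the values of PI and AP1, of AP1 and SEP3, and of AG and SEP1 overlapped between neighbours. In the control RIP the values of neighbours overlapped from SEP3 down to SEP4, while SEP3 lay wholly above AP1 and SEP4, and SEP4 lay wholly above AP3. These are levels of RNA recovered with the antibody, and no input library is among the 4. In whole plants, fewer cells of a type, less RNA per cell and a different recovery in the RIP cannot be told apart.

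**Figure D1:**
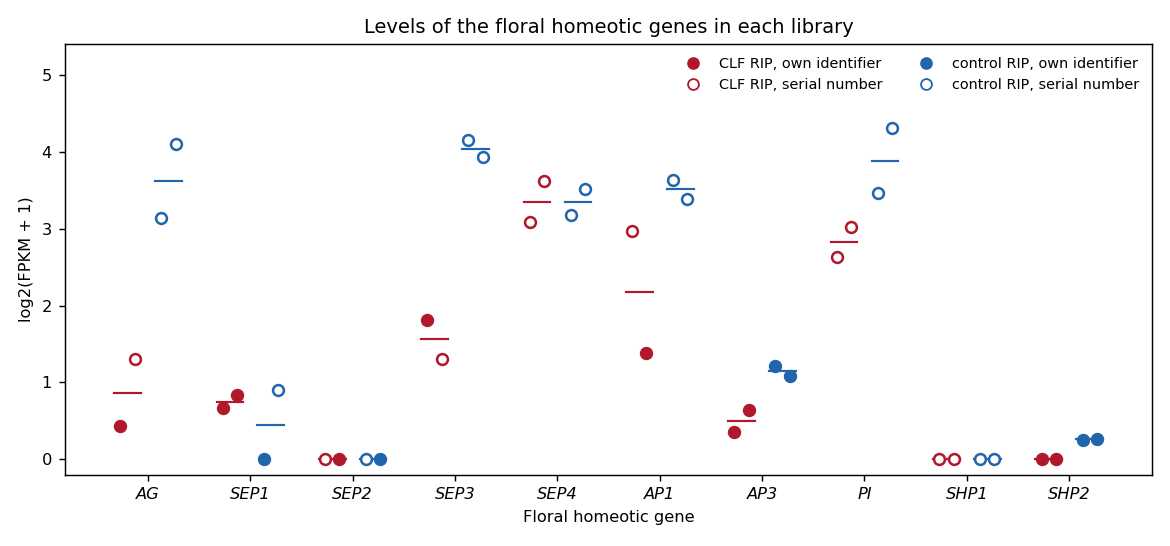
Level of each floral homeotic gene, as log2(FPKM + 1), in the 2 CLF RIP libraries (red, left) and the 2 control RIP libraries (blue, right); each point is 1 library, short lines are the means of the log2 values, filled points were listed under the gene's own identifier and open points under a serial number. AG and SEP3 lie low in both CLF RIP libraries, SEP4 overlaps between groups, and SEP2 and SHP1 are listed at 0 throughout.

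AG (AT4G18960), the gene for stamen and carpel identity, lies on chromosome 4 from 10382856 to 10388539 in the TAIR10 coordinates of the tables, and its span was the same in all libraries. It had 0.354 and 1.46 FPKM in the CLF RIP, against 7.81 and 16.1 FPKM in the control RIP. Both CLF RIP values lay below both control RIP values, and within each group the libraries differed widely, by 4.13 times in the CLF RIP and 2.06 times in the control RIP. The log2 fold change on log2(FPKM + 1) was -2.75 (SE 0.52, 2 libraries per group), and the limma adjusted p was 0.113. A log2 fold change on this scale understates the change of low genes. If the AG transcript had the length that AP3 showed below, its CLF RIP values were worth 1.25 and 5.14 reads and its control RIP values 64.5 and 130 reads. If it had filled the whole span they were worth at most 8.35 and 34.3 reads in the CLF RIP and 430 and 864 reads in the control RIP. The SE uses the moderated variance of limma, which draws on all genes tested as well as on the 2 libraries per group.

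SHP1 (AT3G58780) and SHP2 (AT2G42830), close relatives of AG that act in the carpel and the valve margin of the fruit, were at the lower limit of detection. SHP2, on chromosome 2 from 17820255 to 17824013, was listed at 0 in both CLF RIP libraries, against 0.192 and 0.206 FPKM in the control RIP. At the AP3 length the control RIP values were worth 1.59 and 1.66 reads, and 1 read in the CLF RIP libraries would have been listed at 0.283 and 0.285 FPKM. A difference of this size was therefore not detectable at the depth of the CLF RIP, although the groups do not overlap. Another annotated gene crossed the end of SHP2 from 3010 bp onward. That gene was also at 0 in both CLF RIP libraries, against 0.132 and 0.272 FPKM in the control RIP. Whether the SHP2 reads belong to it was not tested. SHP1, on chromosome 3 from 21738460 to 21742517, was listed at 0 in all 4 libraries. Loci of 75 bp overlapping its span held 2 and 3 reads in the CLF RIP and 2 and 3 in the control RIP. The listing at 0 therefore does not mean that no read fell there. In all 4 libraries a larger locus, at 33.3 to 52.4 FPKM, crossed the end of SHP1 from 3611 bp onward. Whether these reads belong to SHP1 or to that locus was not tested.

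The 4 SEPALLATA genes, whose proteins are shared partners in the floral complexes, had unlike levels. SEP3 (AT1G24260), on chromosome 1, had 2.52 and 1.47 FPKM in the CLF RIP, against 16.7 and 14.3 FPKM in the control RIP. The groups were far apart, with both CLF RIP libraries low. The log2 fold change was -2.48 (SE 0.28), and the limma adjusted p of 0.0727 was the lowest among the floral genes without passing the threshold. Its locus ran from 8593637 to 8596105 in the CLF RIP libraries and began at 8593356 and 8593383 in the control RIP libraries, so the control RIP values cover a longer assembled locus. At the AP3 length SEP3 was worth 8.93 and 5.15 reads in the CLF RIP and 138 and 115 reads in the control RIP.

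SEP4 (AT2G03710), on chromosome 2 from 1129268 to 1131838, had 7.47 and 11.2 FPKM in the CLF RIP, against 8.08 and 10.5 FPKM in the control RIP. The groups overlapped and differed by less than the libraries within them. Its log2 fold change was -0.004 (SE 0.30, limma adjusted p = 0.995), which lay below the median of 0.25 over all genes tested. It was the most abundant of the 10 genes in the CLF RIP, where it stood clear of PI, the next.

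SEP1 (AT5G15800), on chromosome 5 from 5151334 to 5154154, had 0.586 and 0.784 FPKM in the CLF RIP, against 0 and 0.861 FPKM in the control RIP. The groups overlapped, and the gene was too low to be tested. SEP2 (AT3G02310), on chromosome 3 from 464279 to 467074, was listed at 0 in all 4 libraries. Loci of 75 bp overlapping SEP2 held 2 and 0 reads in the CLF RIP and 0 and 4 reads in the control RIP.

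AP1 (AT1G69120), which sets floral meristem identity and then sepal and petal identity, lies on chromosome 1 from 25982330 to 25986313. It had 6.83 and 1.61 FPKM in the CLF RIP, against 11.4 and 9.49 FPKM in the control RIP. The control RIP libraries were alike, while the CLF RIP libraries differed by 4.23 times, and the higher of them came near the control RIP. The log2 fold change was -1.34 (SE 0.63, limma adjusted p = 0.291). Leaving out CLF RIP replicate 1 gave -2.13, and leaving out replicate 2 of that group gave -0.55, so a single library set its size.

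AP3 and PI encode the 2 partners of the dimer that specifies petals and stamens. PI (AT5G20240), on chromosome 5 between 6828895 and 6831959, had 5.22 and 7.09 FPKM in the CLF RIP, against 9.98 and 18.7 FPKM in the control RIP. The groups did not overlap, and the control RIP libraries differed from each other by 1.88 times. Its log2 fold change was -1.05 (SE 0.40, limma adjusted p = 0.224), and it was -0.63 without control RIP replicate 2. The assembled locus of PI spanned 2489 and 2621 bp in the CLF RIP libraries and 3019 and 2593 bp in the control RIP libraries.

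AP3 (AT3G54340), on chromosome 3 from 20119173 to 20121170, had 0.283 and 0.567 FPKM in the CLF RIP, against 1.32 and 1.12 FPKM in the control RIP. Scaled by what a single read was worth in each library, these values were whole multiples of the lowest to within 8e-05, as 1 and 2 reads in the CLF RIP and 11 and 9 reads in the control RIP, if the lowest is taken as 1 read. That reading implies a transcript of about 1030 bases. Corrected for depth, 3 reads in the CLF RIP against 20 reads in the control RIP gave a ratio of 0.347, with an exact 95% interval of 0.0661 to 1.17 that covers counting error only. The interval includes 1, so at this depth the direction was not resolved by counting. The log2 fold change on log2(FPKM + 1) was -0.65 (SE 0.21, limma adjusted p = 0.187). PI was listed at several times the FPKM of its partner AP3 in every library.

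Set beside all genes, AG and SEP3 lay far out on the lower side. The test took 14740 genes that reached 1 FPKM in 2 or more libraries, among them 6 floral members (AG, SEP3, SEP4, AP1, AP3 and PI). Limma with Benjamini-Hochberg adjustment called 0 of the 6 at an adjusted p under 0.05, while 3 of them (AG, SEP3 and AP3) had an unadjusted p under 0.05. Over all genes tested, 0.739% were called higher and 0.59% lower in the CLF RIP, and 24.7% had an unadjusted p under 0.05. The calls were 109 higher and 87 lower as deposited, 92 and 111 with quantile-normalized values, and 93 and 125 with median-of-ratios scaling. Only 0.583% of genes tested had a lower log2 fold change than AG, 0.828% a lower one than SEP3, 3.77% than AP1, 6.30% than PI, 12.9% than AP3 and 36.6% than SEP4. AP3 passed the filter through the control RIP libraries alone, and AG reached 1 FPKM in 1 CLF RIP library only, so no count over the genes that passed is given as support. Over all 10 genes, both CLF RIP values lay below both control RIP values for 6 and above for 0, and for AP3 and SHP2 among the 6 this rested on the few reads given above. Among all joined genes, 13% lay below in this way and 23.5% above, and among genes tested 18.9% lay below and 40.4% above. The median log2 difference over the 10 genes was -0.45, against 0.00 over all joined genes, many of which were listed at 0, and 0.25 over all genes tested.

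**Figure D2:**
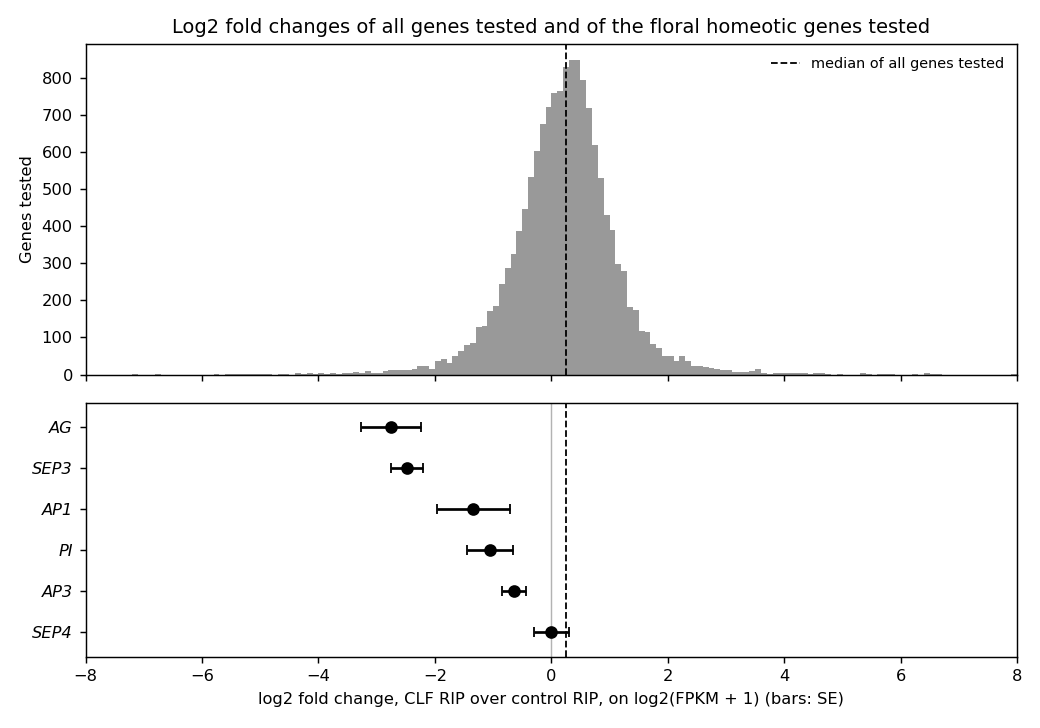
Upper panel, number of genes by log2 fold change (CLF RIP over control RIP, on log2(FPKM + 1), bins of 0.1) for the 14740 genes tested, from which a few values beyond 8 in either direction are left off; lower panel, the 6 floral homeotic genes tested with their SE. The dashed line is the median of all genes tested, 0.25, and AG at -2.75 and SEP3 at -2.48 sit in its lower tail while SEP4 sits near 0.

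Both other scalings moved the median of all genes downward, so they were a weak check on genes already below 0. Single genes could still move up, as AP3 did with quantile-normalized values, from -0.65 to -0.61. The median of all genes tested was 0.25 as deposited, 0.02 with quantile-normalized values and 0.01 with median-of-ratios scaling. In that order of scalings AG was at -2.88 and -2.94, SEP3 at -2.70 and -2.71, AP1 at -1.58 under both, PI at -1.33 and -1.31, and AP3 at -0.61 and -0.77. SEP4 was at -0.29 and -0.26. The limma adjusted p of SEP3 came to 0.0571 and 0.0589 in that order. No floral gene passed the threshold under any alternative in which it was tested. Leaving out 1 library kept AG between -3.23 and -2.27 and SEP3 between -2.74 and -2.22.

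**Figure D3:**
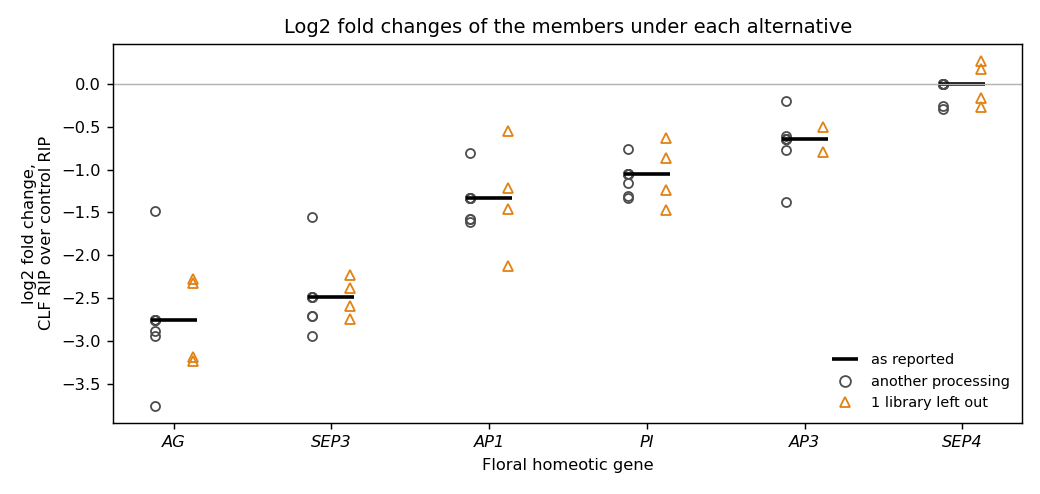
Log2 fold change (CLF RIP over control RIP) of the 6 floral homeotic genes tested, as reported (black bars), under another processing (circles) and with 1 library left out (triangles). AG, SEP3, AP1, PI and AP3 stay below 0 wherever they were tested. AP1 ranges from -2.13 to -0.55 when 1 library is left out, and SEP4 lies on both sides of 0.

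The kind of row a value came from differed between libraries for some of these genes. AP3 and SHP2 stood under their own identifier in all libraries, SEP4, PI and SHP1 under serial numbers in all, and the other 5 under both kinds. The lowest AG value, in CLF RIP replicate 1, and the lowest AP1 value, in CLF RIP replicate 2, were the only values of these genes under their own identifier. Among the SEP3 values, the one under its own identifier was 2.52 FPKM in CLF RIP replicate 1, the higher of the 2 there. Over all joined genes with a mean of at least 1 FPKM, where the libraries of a group used different kinds, the row with a serial number was higher in 76.0% of 2230 genes in the CLF RIP, by a median of 1.31 times. In the control RIP it was higher in 70.4% of 1840 genes, by a median of 1.13 times. On the log2 scale these medians were 0.39 and 0.17. AG, SEP3 and AP1 have no value from rows of a single kind, and the part of the kind of row in their differences was not tested.

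Besides their own locus, the tables listed smaller loci inside the floral genes, which show where reads were assembled apart from the main transcript. Exon positions were not used here, so these loci are placed by distance from the end of the gene with the lower coordinate, and the library kit is not stated to keep strand. Over the 10 genes, loci of at least 200 bp numbered 5 and 3 in the CLF RIP and 9 and 12 in the control RIP. Over all joined genes such inner loci, counted where they spanned under 0.5 of the gene, numbered 4676 and 4700 in the CLF RIP and 4566 and 4607 in the control RIP.

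AG held the most of them. None was listed inside AG in either CLF RIP library, while control RIP replicate 1 listed 1, of 1356 bp at 8.81 FPKM, and control RIP replicate 2 listed 6. These 6 covered positions 1310 to 4103 from the lower end and were listed at 4.93 to 47.5 FPKM. The locus of replicate 1 covered 3041 to 4396 and so overlapped 2 of them, of 17.6 and 47.5 FPKM. Each CLF RIP library instead listed 3 loci of 75 bp overlapping AG, with 1 read apiece. The control RIP libraries held no 75 bp locus there.

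SEP4 listed an inner locus in all 4 libraries at about the same place, between 492 and 1321 bp from the lower end. These loci were at 18.3 and 12.9 FPKM in the CLF RIP, and in the control RIP at 8.91 and 14.5 FPKM in replicate 1 and 11.9 FPKM in replicate 2. SEP3 held inner loci that began 1721 bp from the lower end in both CLF RIP libraries and ended at 1977 and 1967 bp, at 19.5 and 13.3 FPKM, within the place of a locus of 815 bp at 3.45 FPKM in control RIP replicate 1. Loci near the fragment length get large FPKM for few reads, so levels of loci of different spans are not comparable. AP1 listed 1 inner locus in the CLF RIP, at 9.79 FPKM in replicate 2, and 3 in the control RIP, at 2.53 FPKM in replicate 1 and 16.6 and 7.03 FPKM in replicate 2. SHP1, listed at 0 as a whole, held an inner locus at 7.89 FPKM in control RIP replicate 1 and another at 13.3 FPKM in replicate 2, and none of 200 bp or more in the CLF RIP.

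**Figure D4:**
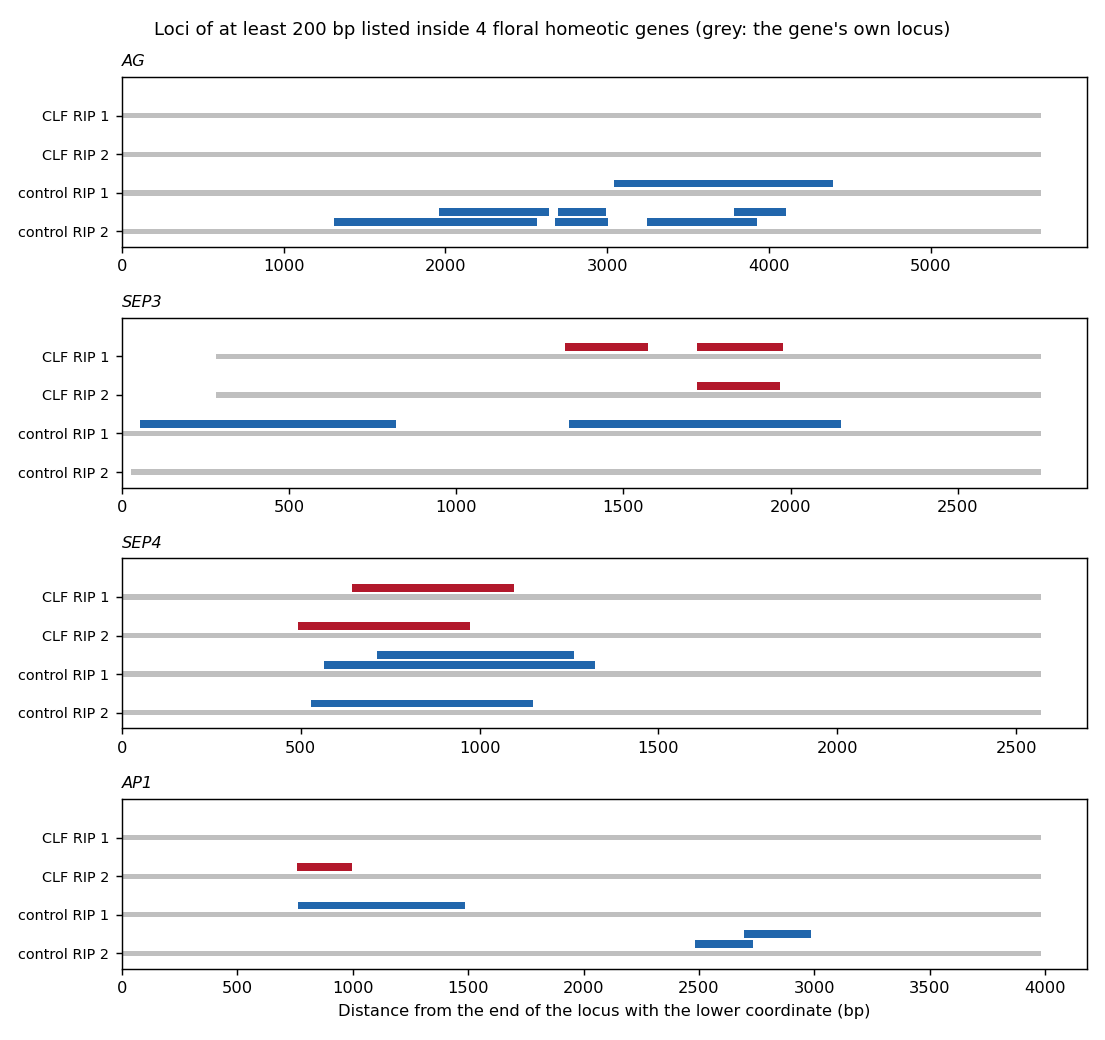
Loci of at least 200 bp listed inside AG, SEP3, SEP4 and AP1 in each library (CLF RIP in red, control RIP in blue), along the distance in bp from the end of the gene with the lower coordinate; grey bars are the gene's own locus and overlapping loci are stacked. AG shows inner loci in the control RIP libraries alone, 1 and 6, and SEP4 shows one at about the same place in every library.

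Other MADS-box genes lay on both sides of 0. Of 11 further floral MADS-box genes, 3 were tested and 0 passed. Of the 3, 1 had an unadjusted p under 0.05, against 24.7% of all genes tested. All 3 had a log2 fold change below 0, while 36.6% of genes tested lay below SEP4 at -0.004. FUL, the closest relative of AP1 outside the members with CAL and also active in leaves and fruit, had 12.4 and 9.30 FPKM in the CLF RIP, against 17.9 and 27.0 FPKM in the control RIP. Its groups did not overlap, and its log2 fold change was -0.97 (SE 0.32, limma adjusted p = 0.193). AGL42, a relative of SOC1, had 16.9 and 9.67 FPKM in the CLF RIP, against 16.5 and 18.7 FPKM in the control RIP (limma adjusted p = 0.487). CAL, the near copy of AP1, stayed below 1 FPKM in all libraries, at 0 and 0.566 FPKM in the CLF RIP and 0.361 and 0.806 FPKM in the control RIP.

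Of 11 vegetative MADS-box genes, 6 were tested, and 0 rose and 1 fell at the threshold, against 0.739% and 0.59% of all genes tested. Of the 6, 4 had an unadjusted p under 0.05, against 24.7% of all genes tested. AGL17, a gene best known from roots and as a promoter of flowering, fell to 0.338 and 0.339 FPKM in the CLF RIP, against 6.35 and 5.46 FPKM in the control RIP. Its log2 fold change was -2.36 (SE 0.19, limma adjusted p = 0.0439), and the adjusted p was 0.131 with CLF RIP replicate 1 left out and 0.138 with replicate 2 of that group left out. AGL17 stood under its own identifier in both CLF RIP libraries and under serial numbers in both control RIP libraries, and the part of this was not tested. It passed the filter through the control RIP alone, and it was not tested with either control RIP library left out. Chosen after their values were seen, AGL19, SOC1 and AGL18 are given for comparison, with AGL19 on the side of AG and the other two on the opposite side. AGL19, a promoter of flowering repressed by Polycomb proteins, had 2.30 and 1.46 FPKM in the CLF RIP, against 13.1 and 8.86 FPKM in the control RIP (log2 fold change -2.05, SE 0.31, limma adjusted p = 0.0925). SOC1, an integrator of flowering signals that acts upstream of the floral genes, had 145 and 117 FPKM in the CLF RIP, against 45.7 and 39.8 FPKM in the control RIP (log2 fold change 1.59, SE 0.18, limma adjusted p = 0.0734). AGL18 had 14.1 and 14.9 FPKM in the CLF RIP, against 7.78 and 8.09 FPKM in the control RIP, with a log2 fold change of 0.79 and a limma adjusted p of 0.146.

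**Figure D5:**
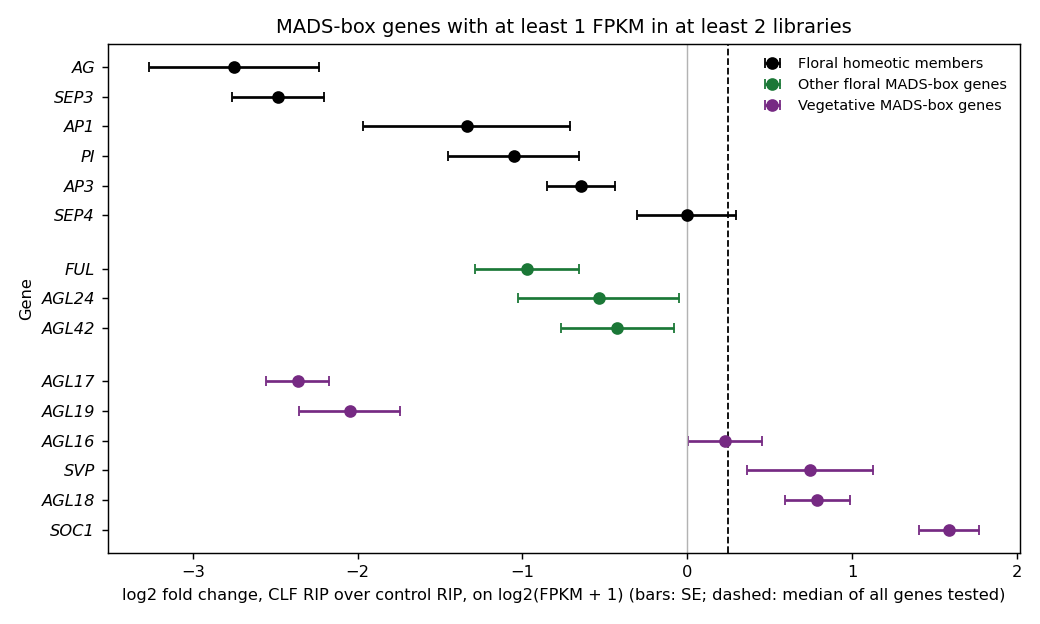
Log2 fold change (CLF RIP over control RIP, on log2(FPKM + 1)) with SE for the MADS-box genes tested: 6 floral homeotic members, 3 other floral and 6 vegetative genes, with the median of all genes tested as a dashed line. The vegetative genes span from AGL17 at -2.36 to SOC1 at 1.59, so low values are not shared by the whole family.

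None of the regulators of the floral genes that were tested passed the threshold. Of 12 activators and cofactors, 8 were joined and 3 tested, with 0 past the threshold. Of the 3, 1 had an unadjusted p under 0.05, against 24.7% of all genes tested. FD, the bZIP factor that acts with FT to activate AP1, had 6.81 and 12.5 FPKM in the CLF RIP, against 3.16 and 2.45 FPKM in the control RIP (log2 fold change 1.44, SE 0.36, limma adjusted p = 0.149). ULT1, a trithorax-type factor that activates AG, had 0 and 2.1 FPKM in the CLF RIP, against 4.16 and 3.48 FPKM in the control RIP (limma adjusted p = 0.271). LFY, which activates AP1, AP3 and AG, was too low to be tested, at 0.444 and 0 FPKM in the CLF RIP and 0.567 and 0.781 FPKM in the control RIP.

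Of 16 repressors, 15 were joined and 13 tested, with 0 past the threshold. Among them 1 had an unadjusted p under 0.05, against 24.7% of all genes tested. Of the 13, 8 had a log2 fold change above 0 and 5 below, with a median of 0.56 against 0.25 over all genes tested. Most genes tested lay above 0 as well, as 36.6% of them lay below SEP4 at -0.004. LUH, a relative of the co-repressor LUG, had 50.5 and 44.7 FPKM in the CLF RIP, against 30.3 and 26.8 FPKM in the control RIP (log2 fold change 0.72, SE 0.19, limma adjusted p = 0.153). SEU, the partner of LUG in repressing AG, had 19.2 and 32.2 FPKM in the CLF RIP, against 13.0 and 13.2 FPKM in the control RIP (limma adjusted p = 0.225).

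Of 10 targets and partners in stamens, carpels and fruit, 9 were joined and 4 tested, with 0 past the threshold. Of the 4, 1 had an unadjusted p under 0.05, against 24.7% of all genes tested. NAP, a target of AP3 and PI that also acts in leaf senescence, had 48.1 and 54.8 FPKM in the CLF RIP, against 26.8 and 25.5 FPKM in the control RIP (log2 fold change 0.95, SE 0.18, limma adjusted p = 0.113). GNC, a GATA factor repressed by AP3 and PI, had 20.3 and 22.2 FPKM in the CLF RIP, against 42.1 and 22.6 FPKM in the control RIP (limma adjusted p = 0.446). The joined genes outside the 4 tested were too low for the test. KNU was listed at 0 in all libraries, and SPL/NZZ and HEC1 overlapped between groups. CRC, a carpel gene, was at 0 in both CLF RIP libraries, against 0.412 and 0.993 FPKM in the control RIP. IND was at 0 in both CLF RIP libraries, against 0.0753 and 0.0777 FPKM. At the AP3 length, 1 read was worth 0.283 and 0.285 FPKM in the CLF RIP and 0.121 and 0.124 FPKM in the control RIP. These values therefore rest on few reads.

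The mean pattern of the 6 tested floral genes over the 4 libraries was nearest to those of AT3G57480, EXPA9, ANAC087, PYL4 and XIB. Likeness was the distance between log2(FPKM + 1) values centred on each gene's own mean, and these 5 genes lay at 0.0633 to 0.108. The floral genes themselves lay farther out, from 0.594 for PI to 1.58 for AG, so none followed their mean closely. EXPA9, an expansin gene, had 9.45 and 9.70 FPKM in the CLF RIP, against 22.5 and 28.1 FPKM in the control RIP, and PYL4, an abscisic acid receptor gene, had 30.8 and 30.4 FPKM in the CLF RIP and 76.5 and 83.6 FPKM in the control RIP. With 4 libraries in 2 groups, the likeness says little more than that the group difference was of similar size.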

How the data were processed

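Each library has 1 table of FPKM per locus, deposited by the authors. Per the submitters' processing notes, reads were handled with Trimmomatic and TopHat2 2.0.10 on TAIR10. The program that computed FPKM values is not stated in the labels. Gene spans came from rows under TAIR10 identifiers or, where no library had one, from a RefSeq table of TAIR10.1, with which 65.8% to 67.3% of such rows shared an end. Serial-number joins were limited to spans of 300 bp or more and to loci matching 1 gene, and 199 genes were left out because a serial locus was valued as high as a single read on 75 bp. Genes reaching 1 FPKM in 2 or more libraries entered limma 3.58.1 (R 4.3.3) as log2(FPKM + 1) (eBayes with trend and robust prior). The p-values were adjusted by Benjamini-Hochberg over all 14740 genes, threshold 0.05. The fit was also run on normal values simulated from its own means and variances. That run held no mixed kinds of row and no low read numbers, so it cannot check the calls for their effect. Depth was fitted so that low values became whole reads: 48.1% to 49.5% of 1649 to 1734 low rows were whole within 0.03. Members and lists were chosen with earlier results of these data known. Named genes were the members, CLF, UNE15, list members past the threshold or else the 2 with the smallest p, the 5 nearest in pattern, and those said to be chosen later or given because they could not be tested. Alternatives changed the filter, pseudocount, scaling, prior, pairing, join and libraries. Promoters, proteins and exons were not analysed here. Joins ran in Python 3.11.15 with numpy 2.4.6 and pandas 2.3.3, intervals in scipy 1.17.1, and plots in matplotlib 3.10.9.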

Additional observations from a re-analysis of the deposited data

How the results depend on the processing

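No floral gene passed the threshold under any of the 15 alternatives in which it was tested. AG, SEP3, AP1, PI and AP3 stayed below 0 wherever they were tested, though both other scalings shift the median of all genes downward. Among genes under their own identifier 1 member (AP3) was tested, and with the same kind of identifier 3 (SEP4, AP3 and PI). Both of these alternatives left AG, SEP3 and AP1 untested. At an overlap of 0.9, 4 members were tested (AG, SEP4, AP1 and AP3). AP3 was not tested at 2 FPKM or with either control RIP library left out. SEP4, at -0.004, turned to 0.000397 at a pseudocount of 5, and ranged from -0.27 to 0.26 with 1 library left out. The median over the floral genes, -0.45, was -1.27 at a pseudocount of 0.1, -0.13 at a pseudocount of 5, -0.53 after median-of-ratios scaling, -0.13 over the 8 members joined at an overlap of 0.9, -0.26 over the 5 with the same kind of identifier in all libraries (an alternative chosen after seeing the data) and -0.44 to -0.38 with 1 library left out. Limma called 109 genes higher and 87 lower as reported, but 4 and 3 with no filter, 38 and 39 at a pseudocount of 5, 38 and 26 without the trend and robust prior, 284 and 204 among genes under their own identifier, 65 and 44 with the same kind of identifier, and 0 to 1 and 0 to 4 with 1 library left out. With the replicate block it called 0 and 0, where 2692 genes had an unadjusted p under 0.05. The differences between replicates 1 and 2 correlated across genes by 0.0198 between groups. Whether libraries with the same replicate number share a batch is not in the labels and was not tested. Where 1 control RIP library was left out and 0 were called, 1670 and 1634 genes had an unadjusted p under 0.05, and 3476 did without CLF RIP replicate 2, where 0 were called higher. The 1 companion gene past the threshold, AGL17, was lost with no filter, at a pseudocount of 5, without the prior, under the replicate block and with either CLF RIP library left out, and was not tested with the same kind of identifier, among genes under their own identifier or with either control RIP library left out, so that 0 list genes passed in each case. The causes were not tested. Depth limits AP3, SEP1, SEP2, SHP1, SHP2 and the CLF RIP values of AG, SEP3 and, in replicate 2, AP1.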
